A study of Mus musculus with 6 samples.

Results

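The EGR transcription factors and their NAB corepressors were followed in cultured mouse cerebellar granule neurons (CGNs), the small excitatory neurons of the cerebellum. The members are Egr1, Egr2, Egr3, Egr4, Nab1 and Nab2, 6 of the 55341 genes in the count tables, and they were picked by symbol. They were chosen by a reading of these same libraries that already included GSK-126 against DMSO, so every value of that comparison for a member is a description and carries no test.

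EGR proteins are zinc finger transcription factors that bind a GC-rich DNA element. Their genes are classic immediate early genes: growth factors, calcium entry and synaptic activity turn them on within minutes through ERK kinases, serum response factor bound at CArG boxes, and CREB bound at cAMP response elements. In neurons, EGR1 and EGR3 are known for roles in plasticity, and EGR2, also called Krox20, is best known from hindbrain patterning and myelination. NAB1 and NAB2 bind a repression domain of EGR1, EGR2 and EGR3 and recruit the NuRD remodelling complex through its CHD4 subunit. Nab2 is itself an EGR target, which makes it the inducible arm of a feedback loop.

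RNA-seq libraries came from CGN cultures given the vehicle DMSO (3 libraries) or GSK-126 (3 libraries), an inhibitor of EZH2, the enzyme that trimethylates histone H3 at lysine 27. The labels place both treatments at DIV3, day in vitro 3, and name the tissue as cerebellum. According to the study's methods, granule neuron precursors were taken from P6-P8 cerebella of CD1-IGS mice and pooled over litters for each replicate, and cultures of both groups also received AraC, which stops cell division, before the drug. RNA was collected at DIV5, and the dose of GSK-126 in these libraries was not found in the sources used here. No cell was sorted, so bulk RNA cannot tell fewer cells of a type from less RNA per cell.

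Between 7407189 and 13092763 counts per library fell on genes. Expression is given as CPM, a gene's count relative to all counts on genes in that library, with the library size adjusted by TMM factors. Replicate 2 of both groups stood apart: 8 astroglia markers summed to 2784 and 2633 CPM there and to between 4547 and 8508 elsewhere. The 12 markers of granule neurons were all detected, and their sum ranged from 3784 to 7941 CPM. Libraries with the same replicate number deviated together, so the replicate number was also fitted as a block, which treats the libraries as 3 pairs. Without the block, edgeR called 0% of 16729 tested genes higher and 0% lower at an adjusted p under 0.05, while 296 and 369 had an unadjusted p under 0.05 and DESeq2 called 19 and 2. With the block, edgeR called 3.35% of the tested genes higher and 5.09% lower.

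Of the 6 members, 5 passed the filter on low counts, and Egr2 was listed at 0 in every library. In the fit without the block 0 of the 5 passed the threshold, and only Egr4 had an unadjusted p under 0.05. With the block, Egr4 and Nab2 passed, both lower with GSK-126, which is 2 of 5 beside the 5.09% of all genes called lower. DESeq2 with the block called 0 members: it gave Egr3 and Egr4 no adjusted p, and Nab2 did not pass. The groups did not overlap for Egr4 and Nab1, GSK-126 lying below DMSO, beside 4.72% of all tested genes in that direction and 4.72% in the other. The same 2 genes were lower in all 3 pairs, as were 22.8% of tested genes, and 0 of the 5 members were higher in all 3 pairs, against 19.5% of tested genes. The members were selected on this contrast, which can by itself raise their shares. Their threshold outcomes and the shares beside them are therefore description and no test.

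**Figure D1:**
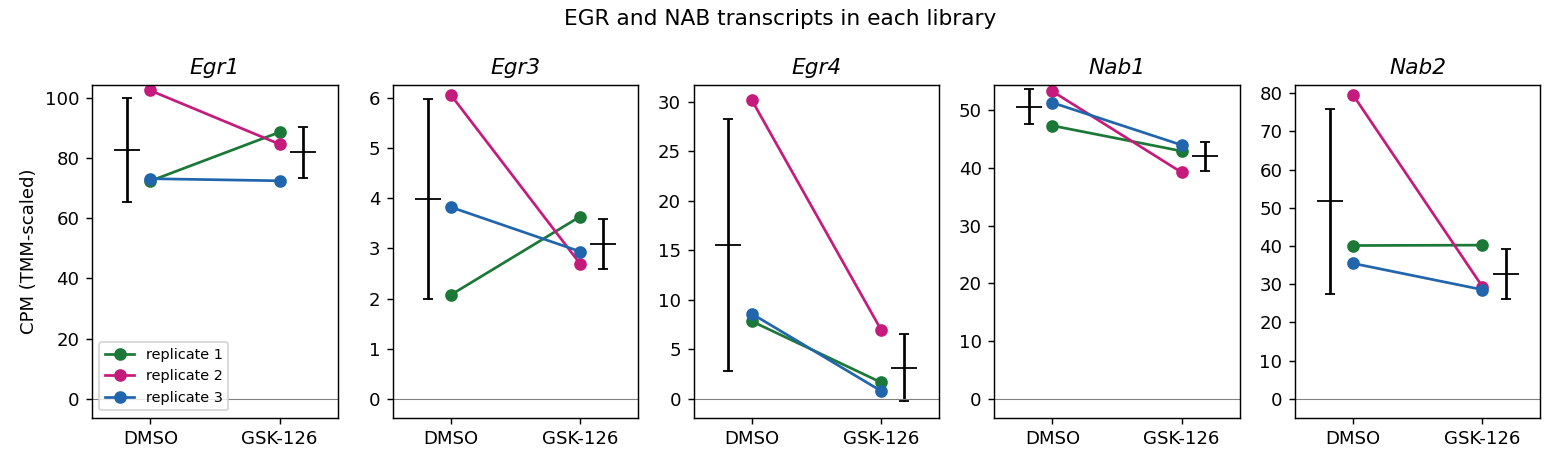
CPM of the 5 detected members in each library (vertical axes, TMM-scaled, each panel with its own linear scale), with DMSO on the left and GSK-126 on the right. Lines join libraries with the same replicate number, and the black bars beside the points are the mean ± SD of 3 libraries. Egr4 falls along all 3 lines, and DMSO replicate 2 is the highest library for each of the 5 genes.

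Scaled to exon length, the members spanned a wide range of levels. In DMSO, Egr1 had 18.4 ± 3.82 CPM per kilobase of exon (SD, n = 3), Nab2 had 17.6 ± 8.23 and Nab1 had 12.3 ± 0.738. Egr4 followed with 7.24 ± 5.91 CPM per kilobase, and Egr3 was lowest of those detected, with 0.905 ± 0.453. On this per-length scale the DMSO ranges of Egr1 and Nab2 overlapped, as did those of Nab2 and Nab1 and those of Nab1 and Egr4, whereas every Egr3 library lay below every Egr4 library. With GSK-126, Egr1 (16.1 to 19.7 CPM per kilobase) lay above Nab2 (9.72 to 13.7) in every library, Nab2 and Nab1 (9.56 to 10.7) still overlapped, and Egr4 (0.373 to 3.26) now overlapped Egr3 (0.611 to 0.826). The place of Nab2 in this order depends on the strand setting of the counting, which is not given in the sources used here. On the 1700 bp of its exons that no other gene overlaps, which is what counting without strand would leave, Nab2 was at 30.4 ± 14.2 CPM per kilobase with DMSO and 19.3 ± 3.83 with GSK-126 (16.8 to 23.7), above the mean of Egr1 in both groups and overlapping its range in both. This length was chosen after seeing the data.

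Among the transcription factors, Egr4 had by far the largest difference. Egr4 (ENSMUSG00000071341.4, GRCm38 chromosome 6, 85511121 to 85513589, minus strand) encodes the family member that lacks the NAB-binding domain. Its bases before the RefSeq start site are shown because this is the member that differed most. The stretch is chr6:85513590-85513839 (GRCm38.p6, RefSeq, minus strand, written 5′ to 3′), and capitals mark the 2 copies of the half-site of a cAMP response element, TGACG, both read on the strand opposite the gene:
Egr4: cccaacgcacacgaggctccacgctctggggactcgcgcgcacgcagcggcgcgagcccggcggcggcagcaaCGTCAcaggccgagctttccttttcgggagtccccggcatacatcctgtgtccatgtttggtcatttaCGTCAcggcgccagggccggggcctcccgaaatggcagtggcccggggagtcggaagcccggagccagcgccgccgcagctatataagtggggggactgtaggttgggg
The copies lie at -177 to -173 and -109 to -105 from the start site. Of 32851 RefSeq promoters (300 bases each, 250 before and 50 after the start site), 20.8% hold TGACG on either strand, so a match is common. A full element, TGACGTCA, which contains the half-site and is in 1.79% of promoters, was not found in the Egr4 window, nor was a CArG box (1.63%), the EGR motif GCGTGGGCG (0.612%), the ETS motif CCGGAA (14.9%) or TATAAA (13.6%). Only exact matches to these letters were searched, on both strands. Variants, such as the tatataa in the stretch above, were not counted, so the search does not show that such forms are absent. A match is not evidence of binding.

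Egr4 was at 7.84, 30.2 and 8.60 CPM in DMSO replicates 1, 2 and 3 and at 1.67, 7.0 and 0.801 CPM in GSK-126 replicates 1, 2 and 3. The highest GSK-126 library, replicate 2, thus came close to the lowest DMSO library without reaching it, and replicate 2 was the highest library of both groups. The raw counts behind these values were 68, 324 and 99 with DMSO and 22, 65 and 6 with GSK-126. A count of 6 has an exact Poisson 95% interval of 2.20 to 13.1, which covers counting error only. The group means were 15.6 ± 12.7 and 3.16 ± 3.36 CPM (SD, n = 3 each), a fitted fold of 4.92 in favour of DMSO. On the log2 scale the difference was -2.30 without the block (standard error 0.81, 95% interval -4.16 to -0.43). With the block it was -2.37 (standard error 0.24, 95% interval -2.89 to -1.86). The pairs gave -2.23, -2.11 and -3.42, so each replicate number showed the same direction. Of the 16729 tested genes, 3 had a lower fitted log2 fold change than Egr4. Egr4 passed in each block fit that left out a pair, with -2.66 to -2.15, but in none of the fits without the block. The fit without the block moved from -3.55 without GSK-126 replicate 2 to -1.37 without DMSO replicate 2. The rank and the refits reuse the libraries on which the members were selected, so they are description and no test.

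Markers of granule neurons moved with Egr4. The summed CPM of their 12 markers, such as Neurod1, Zic1 and Gabra6, was 4863, 7941 and 5601 in DMSO replicates 1 to 3 and 3784, 6143 and 4307 in GSK-126 replicates 1 to 3. The log2 ratios of these sums were -0.36, -0.37 and -0.38 in the 3 pairs, smaller in size than those of Egr4. Single markers spread widely, from -1.92, -2.02 and -1.88 in the 3 pairs for Slc17a7 to 0.07, 0.82 and 0.31 for Tubb3. Of the 12 markers, 11 were lower with GSK-126 and the median log2 fold change was -0.42; with the block, 8 were called lower and 1, Tubb3, higher. The summed CPM of 7 markers of inhibitory neurons and Purkinje cells ran from 208 to 243 with DMSO and from 162 to 197 with GSK-126. The sums of microglia markers (254 to 516 against 340 to 642 CPM) and of vascular and fibroblast markers (5132 to 7170 against 6421 to 7899 CPM) overlapped between groups and were higher with GSK-126 in all 3 pairs. The sums of oligodendrocyte lineage markers (log2 ratios 0.03, 0.21 and 0.19) and of granule neuron progenitor markers (0.17, 0.04 and 0.06) were also higher in all 3 pairs. These sums, too, overlapped between groups. Astroglia markers were mixed, with log2 ratios of their sums of 0.05, -0.08 and -0.02. None of the genes of these lists was at 0 throughout. The part of such shifts in the values of the members and of the gene lists below was not tested.

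Egr1 showed no common direction. Egr1 (ENSMUSG00000038418.7, GRCm38 chromosome 18, 34859823 to 34864984, plus strand), the best studied immediate early factor of the family, had 72.3, 102 and 73.1 CPM in DMSO replicates 1 to 3 and 88.5, 84.5 and 72.4 CPM in GSK-126 replicates 1 to 3. The groups overlapped almost completely, with means of 82.6 ± 17.1 and 81.8 ± 8.40 CPM (SD, n = 3 each). The pairs gave log2 ratios of 0.29, -0.28 and -0.01, and the fitted log2 fold change was -0.01 (standard error 0.17) without the block. With the block the 95% interval ran from -0.21 to 0.21, which bounds the difference but does not show that the groups are alike. The sign turned with single libraries, from -0.09 to 0.17 when each was left out.

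**Figure D2:**
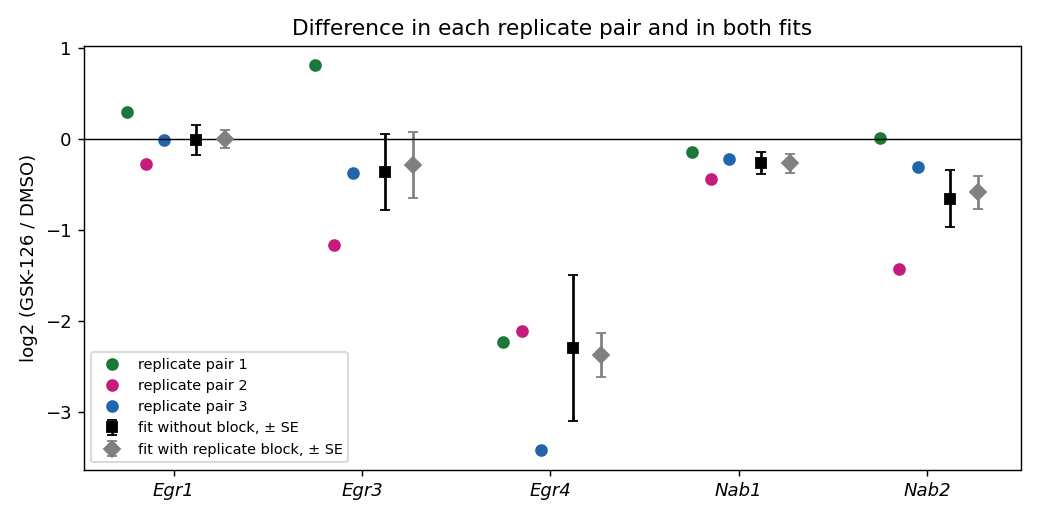
Log2 ratio of GSK-126 to DMSO for each replicate pair (coloured points) and from the fits without and with the replicate block (black squares and grey diamonds, bars ± SE), for the 5 detected members. All 3 pairs lie below 0 for Egr4 and Nab1, and pair 2 is the lowest for Egr1, Egr3, Nab1 and Nab2.

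Egr3 was the sparsest of the detected members. Egr3 (ENSMUSG00000033730.4, GRCm38 chromosome 14, 70077203 to 70082614, plus strand), known for its role in muscle spindles and in memory, had 2.08, 6.06 and 3.82 CPM in DMSO replicates 1 to 3 and 3.64, 2.69 and 2.94 CPM in GSK-126 replicates 1 to 3. All GSK-126 libraries fell inside the DMSO range. Counts were only 18 to 65 per library, and the log2 fold change was -0.37 (standard error 0.42) without the block and -0.29 (standard error 0.36) with it. DMSO replicate 2 set this direction: without it the value was 0.06, and without pair 2 the block fit gave 0.20.

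Egr2 gave no usable value. Egr2 (ENSMUSG00000037868.15, GRCm38 chromosome 10, 67535475 to 67542188, plus strand) was listed at 0 in all 6 libraries, but it lies in a run of 16 neighbouring genes that were all listed at 0, of which Nrbf2 and Ado are the other protein-coding ones. Jmjd1c, before the run, had 1517 to 2965 counts, and Zfp365, after it, had 151 to 359. Genes that most cells use, such as Hnrnpu and Ppp1ca, were also listed at 0 throughout, as was the immediate early gene Jund. A listed 0 for Egr2 therefore cannot be read as a level, and what produced these zeros was not tested.

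The corepressors were both on average lower with GSK-126, with different patterns. Nab1 (ENSMUSG00000002881.14, GRCm38 chromosome 1, 52457294 to 52500679, minus strand), the more steadily expressed corepressor, had 47.3, 53.2 and 51.3 CPM in DMSO replicates 1 to 3 and 42.9, 39.2 and 43.9 CPM in GSK-126 replicates 1 to 3. The groups did not overlap, but the gap between the lowest DMSO and the highest GSK-126 library was small. Means were 50.6 ± 3.03 and 42.0 ± 2.49 CPM (SD, n = 3 each), a fold of 1.20 in favour of DMSO. The log2 fold change was -0.27 in both fits (standard error 0.12 without the block and 0.11 with it), and it did not pass the threshold in either. The pairs gave -0.14, -0.44 and -0.22, and leaving out single libraries kept the value between -0.30 and -0.20. Without pair 2 the block fit gave -0.18.

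Of the 4 members searched, Nab1 was the only one whose window around a RefSeq start site held the EGR motif. The 2 copies were on opposite strands. GENCODE starts Nab1 further upstream, so both copies lie before the RefSeq start site but within an annotated GENCODE exon. The stretches below are chr1:52500571-52500599 and chr1:52500539-52500567 (GRCm38.p6, RefSeq, minus strand, 5′ to 3′), with the motif GCGTGGGCG or its reverse complement in capitals and 10 bases on each side. They are shown because the encoded protein acts on factors that bind this motif:
Nab1, -141 to -133: gccccgcggcCGCCCACGCcgggatctgc
Nab1, -109 to -101: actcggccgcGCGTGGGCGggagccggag
The motif was in 0.612% of promoters of the same length. The Nab1 window is also rich in GC, at 81.7% against a median of 52.7% over all promoters, and held 46 CpG dinucleotides against a median of 7. The match was not compared with windows of like composition. RefSeq promoters were searched for 4 of the 6 members, at 8 start sites. The 5 start sites of Egr2 had 2 distinct CArG boxes among them, 1 of which was shared by 3 neighbouring start sites. Egr1 and Egr3 had no entry.

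Nab2 passed with the block only while pair 2 was in the fit. Nab2 (ENSMUSG00000025402.12, GRCm38 chromosome 10, 127660918 to 127668568, minus strand), the inducible corepressor, had 40.1, 79.5 and 35.5 CPM in DMSO replicates 1 to 3 and 40.2, 29.4 and 28.6 CPM in GSK-126 replicates 1 to 3. DMSO replicate 2 was well above all other libraries, and GSK-126 replicate 1 lay inside the DMSO range. Means were 51.7 ± 24.2 and 32.7 ± 6.51 CPM (SD, n = 3 each), and the log2 fold change was -0.66 (standard error 0.31) without the block and -0.59 (standard error 0.18) with it. The pairs gave 0.00, -1.44 and -0.31. Without DMSO replicate 2 the value was -0.20, and without pair 2 the block fit gave -0.14. Of the tested genes, 504 had a lower log2 fold change than Nab2, so its place among all genes was far less extreme than that of Egr4. For Nab2 too, passing and rank reuse the libraries on which the members were selected and are no test.

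The Nab2 counts carry one further uncertainty. Of the 2941 bp of its exons, 42.2% overlap genes on the opposite strand, namely Gm16229 (1050 bp), Nemp1 (151 bp) and Stat6 (40 bp), and the strand setting of the counting is not given in the sources used here. The count of Gm16229 was 46.8% to 56.8% of that of Nab2 in every library. Unless both the library preparation and the counting kept strand, reads of the 2 genes cannot be told apart where they overlap. None of the other members overlapped another gene. The RefSeq start site of Nab2 lies inside the gene as GENCODE annotates it, so its window is not that of the GENCODE 5′ end. None of the motifs searched was found in that window, which says only that these letters are not in it.

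**Figure D3:**
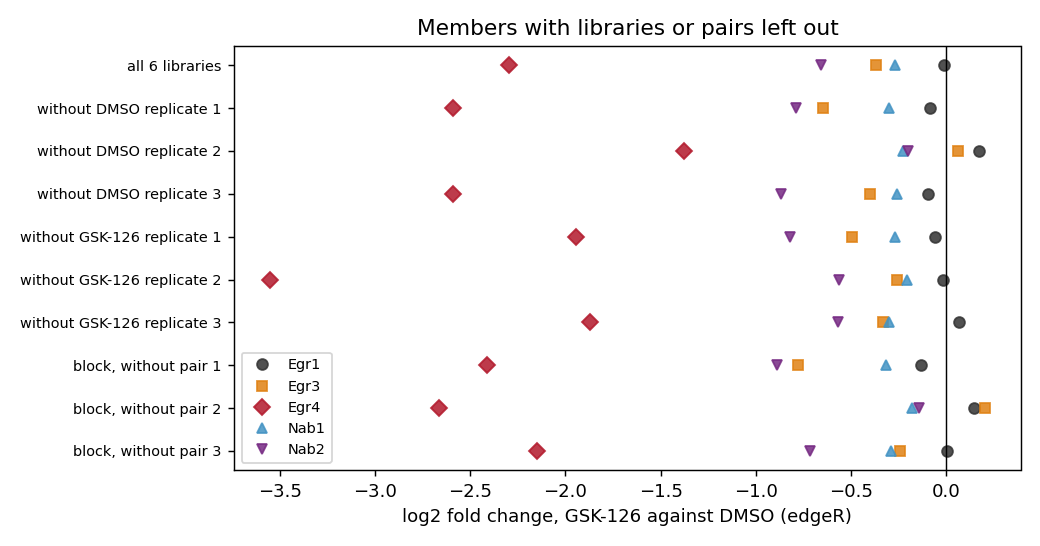
Fitted log2 fold change of GSK-126 against DMSO (horizontal axis) for the 5 detected members with all 6 libraries, with each library left out, and in block fits with each pair left out (rows). Egr4 stays between -3.55 and -1.37, while Egr3 and Egr1 move to above 0 without DMSO replicate 2 and without pair 2.

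Ratios of raw counts within a library compare members without any scaling between libraries. Egr4 over Egr1 was 0.108, 0.295 and 0.118 in DMSO replicates 1 to 3 and 0.0188, 0.0828 and 0.0111 in GSK-126 replicates 1 to 3, so every GSK-126 library lay below every DMSO library. Nab2 over Nab1 was 0.849, 1.49 and 0.692 with DMSO and 0.938, 0.750 and 0.650 with GSK-126, with overlapping groups. Nab2 over Egr1, the corepressor relative to the factor it binds, was 0.555, 0.777 and 0.485 with DMSO and 0.455, 0.348 and 0.395 with GSK-126. GSK-126 again lay below DMSO throughout, by a small gap. Egr3 over Egr1 overlapped, at 0.0287 to 0.0592 with DMSO and 0.0318 to 0.0411 with GSK-126. How often ratios of other genes separate the groups was not counted.

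Most pairs of members varied in the same direction, to different degrees. Across the 6 libraries, the deviations from the group means of Egr1 and Nab2 had a Pearson correlation of 0.93, the highest among members. The other positive values ran from 0.32 for Egr1 and Nab1 to 0.79 for Egr3 and Nab1. Only the deviations of Egr4 and Nab1 had a negative correlation, of -0.24. The closest profiles to Egr4 among 12035 genes were those of Amph (r = 0.99, a protein of synaptic vesicle endocytosis), Kcnip3 (r = 0.99, a calcium sensor) and Apba2 (r = 0.99, a neuronal adaptor), and 679 genes had an r over 0.9. For the other members, 46 to 133 genes did so. The closest to Egr1 were Strap, Acot8 and Pcdhb11, to Egr3 Gm47950, Rbm41 and Dagla, to Nab1 Rab21, Zbtb41 and AC158975.2, and to Nab2 Pcm1, Tmem68 and Erp44. These correlations are over 6 libraries that share culture pairs and treatment, and they describe likeness only.

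Genes listed as inducers of EGR genes were more often lower than higher with GSK-126. The list held 23 genes for ERK pathway kinases, serum response factor and its partners, CREB with its kinases and coactivators, and MEF2 factors. Of these, 17 were lower and 6 higher, with a median log2 fold change of -0.13. Over all tested genes the median was -0.01, with 8568 lower and 8161 higher. Without the block 0 of the 23 passed, by edgeR or by DESeq2, and 3 had an unadjusted p under 0.05 in edgeR. With the block edgeR called 5 lower and 0 higher. Camk4, a calcium-activated kinase of CREB, went from 143 ± 49.8 to 88.8 ± 25.7 CPM (SD, n = 3 each), and the block fit gave -0.67 on the log2 scale (standard error 0.079, edgeR, adjusted p = 1.48e-05). Rps6ka1, the ERK-activated kinase RSK1, had -0.55 (standard error 0.077, edgeR with the block, adjusted p = 8.09e-05). Mef2d, a MEF2 factor, had -0.28 (edgeR with the block, adjusted p = 0.0372), but did not pass in DESeq2 with the block (adjusted p = 0.0600). Mef2a, the more abundant MEF2 factor, had 210 ± 32.5 and 208 ± 25.7 CPM. Without the block the adjusted p of Camk4 and Rps6ka1 was 0.953 (edgeR).

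Genes listed as feedback regulators of ERK signalling, many of them induced by it, showed both directions. Of 13 such genes 8 were lower and 5 higher, with a median log2 fold change of -0.09. Without the block 0 passed in edgeR and in DESeq2, and 1 had an unadjusted p under 0.05 in edgeR. With the block edgeR called Dusp5 and Spred2 lower and Ier3 higher. Dusp5, a phosphatase of nuclear ERK, went from 148 ± 64.1 to 101 ± 49.2 CPM (SD, n = 3 each), for a log2 difference of -0.57 with the block (standard error 0.078, edgeR, adjusted p = 7.24e-05). Spred2, an inhibitor of RAF activation and among the most abundant here, had -0.46 (edgeR with the block, adjusted p = 0.00138), while Spred1 had -0.13 (adjusted p = 0.429). Ier3 had 0.52 (edgeR with the block, adjusted p = 0.00574), and this call was lost without pair 2. Ier3 is an early response gene whose product is known to prolong ERK activation rather than end it. Without the block the adjusted p of Dusp5, Spred2 and Ier3 was 0.953 (edgeR).

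Other immediate early genes were more often higher than lower with GSK-126. Of 20 listed genes 19 were tested, Jund being listed at 0, and 14 were higher and 5 lower, with a median log2 fold change of 0.15. Without the block 0 passed in edgeR and in DESeq2, and 2 had an unadjusted p under 0.05 in edgeR. With the block edgeR called 4 higher and 0 lower. Fos, the AP-1 subunit used as a marker of neuronal activity, went from 23.0 ± 3.51 to 39.5 ± 16.4 CPM (SD, n = 3 each), for a log2 difference of 0.73 with the block (standard error 0.14, edgeR, adjusted p = 0.00222). Junb, another AP-1 subunit, had 0.40 (edgeR with the block, adjusted p = 0.0165), Klf6 had 0.32 (adjusted p = 0.0192) and Klf4 had 0.63 (adjusted p = 0.0210), the last 2 encoding Krüppel-like zinc finger factors. Jun, the most abundant of these genes, had 155 ± 32.3 and 183 ± 4.45 CPM (edgeR with the block, adjusted p = 0.106). DESeq2 with the block also called Fos, Klf6 and, narrowly, Junb (adjusted p = 0.0497), but not Klf4 (adjusted p = 0.102). Without the block the adjusted p of Fos, Junb, Klf6 and Klf4 was 0.953 (edgeR), and none of these 4 calls was left when pair 2 was taken out of the block fit.

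**Figure D4:**
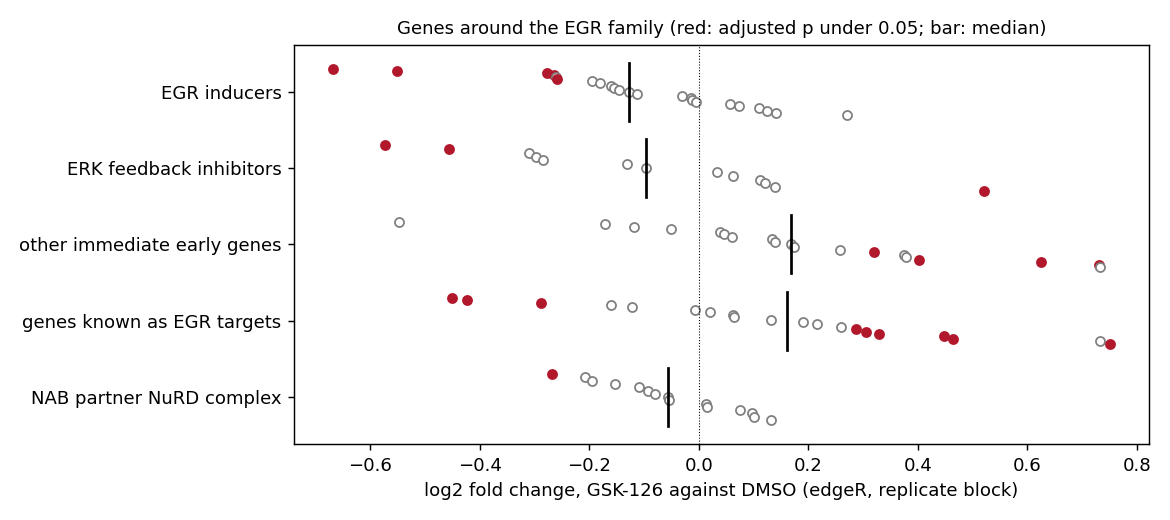
Log2 fold change of GSK-126 against DMSO from the block fit (horizontal axis) for each tested gene of 5 lists (rows), with genes past an adjusted p of 0.05 filled in red and the list's median as a bar. The medians of the inducers, the feedback inhibitors and the NuRD genes lie below 0, and those of the other immediate early genes and the known EGR targets above 0.

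Genes known as EGR targets from other systems were mixed, with 14 of the 20 tested (of 22 listed) higher, 6 lower and a median log2 fold change of 0.15. Without the block 0 passed in edgeR and in DESeq2, and 1 had an unadjusted p under 0.05 in edgeR. With the block edgeR called 6 higher and 3 lower. Id2, an inhibitor of basic helix-loop-helix factors, went from 213 ± 56.5 to 284 ± 18.1 CPM (SD, n = 3 each), for a log2 difference of 0.45 with the block (standard error 0.097, edgeR, adjusted p = 0.00536). With the block, Tgfb1, a growth factor, had 0.46 (edgeR, adjusted p = 0.0210), and Fn1, fibronectin and the most abundant target, had 0.29 (adjusted p = 0.0173). The 3 called lower all encode synaptic proteins: Syn2 had -0.45 (edgeR with the block, adjusted p = 0.000220), Dlg4 had -0.42 (adjusted p = 0.000786) and Syn1 had -0.29 (adjusted p = 0.0220). Without the block the adjusted p of these 6 genes ranged from 0.953 to 0.955 (edgeR). DESeq2 with the block also called Fn1 and the 3 synaptic genes, but not Id2 (adjusted p = 0.208) or Tgfb1 (adjusted p = 0.0579).

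NuRD, the complex that NAB proteins recruit, differed little. Of its 15 genes 9 were lower and 6 higher, with a median log2 fold change of -0.06, and without the block 0 passed in edgeR or DESeq2 and 0 had an unadjusted p under 0.05 in edgeR. Chd4, the subunit that NAB proteins bind and the most abundant of them, went from 389 ± 23.4 to 350 ± 22.7 CPM (SD, n = 3 each), for a log2 difference of -0.15 with the block (edgeR, adjusted p = 0.230). Chd3 had -0.09 (edgeR with the block, adjusted p = 0.499). Only Gatad2b, a scaffold subunit, passed with the block (-0.27, edgeR, adjusted p = 0.0370), and its adjusted p without the block was 0.953 (edgeR).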

How the data were processed

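Per the study's methods and the submitters' processing notes, paired-end poly-A reads went through Trimmomatic 0.38 and were aligned by STAR 2.7.2b to GRCm38.p4. The authors used HTSeq to obtain exon counts and deposited them, unnormalized, as 1 table per library. The annotation release and the strand setting of the counting are not given in the sources used here. All 55341 symbols occur in GENCODE M21, which gave identifiers, coordinates and overlaps. Lines that name no gene held 58.7% to 60.7% of each library and were left out. Sums over genes, 7407189 to 13092763, set the depth, so genes such as Egr3 and Egr4 carry a large counting error.

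Counts were fitted in R 4.3.3 with edgeR 4.0.16 (TMM, filterByExpr, quasi-likelihood test, no block, Benjamini-Hochberg adjustment over all 16729 tested genes, threshold 0.05). DESeq2 1.42.0, other scalings and filters, the replicate block and left-out libraries were alternatives. The code was tested on simulated data. Groups and replicate numbers came from the sample labels. A replicate is a pool of litters, and nothing says which libraries share a pool. Deviations from group means correlated at 0.561, 0.634 and 0.487 for same-numbered libraries and at 0.00638 or less for those of different numbers and groups, so the numbers were taken to pair the libraries. No 2 libraries agreed within counting noise (chi-square per degree of freedom 8.40 or more).

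The members and all gene lists were chosen with earlier results of these data known. Named from each list were up to 4 genes called in each direction by smallest p, with the block because no gene passed without it, and the 2 most abundant, while Mef2d, the cell type markers and the genes listed at 0 beside Egr2 fall outside this rule, the last chosen after their values were seen. Some genes that the rule names are not reported here. Likeness was Pearson's r of log2 CPM (prior count 2) against genes with a mean log2 CPM over 3. Figures were drawn with matplotlib.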

Additional observations from a re-analysis of the deposited data

How the results depend on the processing

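The replicate block changed the counts of calls most. Without it edgeR called 0 genes higher and 0 lower (9 and 1 with no filter, 19 and 2 with DESeq2). With the block edgeR called 561 higher and 851 lower and DESeq2 359 and 604, and block fits without 1 pair gave 417, 337 and 558 higher and 671, 496 and 719 lower (without pairs 1, 2 and 3). Counts of called genes per list follow for the edgeR block fit, the DESeq2 block fit and the range of edgeR block fits without 1 pair. EGR inducers had 5, 3 and 2 to 4 lower. ERK feedback inhibitors had 1, 1 and 0 to 1 higher and 2, 2 and 2 to 2 lower. Other immediate early genes had 4, 3 and 0 to 4 higher, with 0 when pair 2 was left out. Known EGR targets had 6, 2 and 2 to 5 higher and 3, 3 and 2 to 3 lower. NuRD had 1 lower in the edgeR block fit and 0 in the other fits.

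Among members, the block fit without pair 2 moved Egr3 to 0.20, Nab1 to -0.18 and Nab2 to -0.14 on the log2 scale, and the cause was not tested. Leaving out 1 library gave -0.09 to 0.17 for Egr1, -0.65 to 0.06 for Egr3, -3.55 to -1.37 for Egr4, -0.30 to -0.20 for Nab1 and -0.87 to -0.20 for Nab2. A minimum of 10 counts in every library removed Egr4. On the exon bases that no other gene overlaps, an alternative chosen after seeing the data, Nab2 moved from 17.6 to 30.4 CPM per kilobase with DMSO and from 11.1 to 19.3 with GSK-126. The median over all genes stayed between -0.01 and 0.03 under the scalings run. Counting only the bases before the start site kept every motif count of the 4 members searched. With 3 libraries per group and the counts of Egr3 and Egr4, depth limits how well small differences can be read.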
